A study of Mus musculus with 2 samples.

Results

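Growth differentiation factor 15 (Gdf15) and amphiregulin (Areg) mark a set of macrophages in the mouse heart that is described here by a rule on single-cell RNA counts. Both genes encode secreted proteins. Gdf15 is a distant member of the transforming growth factor beta superfamily that many cell types release under metabolic, oxidative or mitochondrial stress, and its known receptor, GFRAL, sits in the hindbrain. Amphiregulin is a ligand of the epidermal growth factor receptor (EGFR), made by several immune cells and known for its part in tissue repair. Both groups were wild-type mice of the C57BL/6 strain, 10 weeks old, which had either transverse aortic constriction (TAC), a narrowing of the aorta that loads the left ventricle with pressure, or a sham operation, and the interval from operation to sampling is not stated in the labels. From their hearts, cells carrying the pan-leukocyte protein CD45 were sorted and measured on the 10x Genomics droplet platform, which counts unique molecular identifiers (UMIs, 1 per captured RNA molecule). Each group is 1 library, for which the submitters give 6 mice per group, and no barcode can be traced to its mouse.

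A barcode, the sequence tag of 1 droplet, entered the set if 300 or more genes were detected in it and mitochondrial genes gave no more than 10% of its UMIs. It also needed at least 40 UMIs of C1qa, C1qb and C1qc together and fewer than 50 of S100a8 and S100a9 per 10000 UMIs, at least 3 UMIs of Gdf15 and Areg together, and fewer than 3 UMIs each of the Cd3 genes, of Mki67, Top2a and Birc5, and of Hmga2. The C1q genes encode a complement protein that cardiac macrophages make, and the excluded genes mark neutrophils, T cells and dividing cells. Of 19916 deposited barcodes, 703 met the rule, 326 of 7975 in the TAC library and 377 of 11941 in the sham library. They were set against barcodes under the same limits with 0 UMIs of both genes, called comparison barcodes, of which there were 1915 in the TAC library and 2295 in the sham library. A further 295 TAC and 386 sham barcodes had 1 or 2 UMIs and are in neither set. No barcode string of a member occurred in both libraries, and 9 TAC and 7 sham comparison strings did.

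The TAC library held 97983083 UMIs and the sham library 87532984. Members were somewhat deeper than comparison barcodes, with medians of 14220.5 against 13467 UMIs per barcode in the TAC library and 11114 against 8460 in the sham library. Their median mitochondrial share was 4.18% against 4.75% in the TAC library and 7.88% against 8.30% in the sham library, so in this share the 2 libraries differed more from each other than members did from comparison barcodes. With 1 library per group no test across animals is possible, and library and operation cannot be told apart. Levels are UMIs summed over a set of barcodes and scaled to counts per 1000000 UMIs (CPM). The intervals in parentheses are 95% intervals, exact except for ratios of shares. They cover counting error only, not differences between animals or between the barcodes of a set. A gene was tested in a comparison if at least 20 UMIs would be expected in the smaller set, and it is called higher or lower when its level differs by over 1.5-fold. No p-value is attached to such a call.

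Gdf15 (ENSMUSG00000038508, protein coding, chromosome 8, 70629393 to 70632456, minus strand in GENCODE vM21) and Areg are the genes whose UMIs the members were chosen by, together with C1q, so their levels are a description. Among TAC members Gdf15 ranged from 0 to 258 UMIs per barcode with a median of 7, against 0 to 129 with a median of 5 among sham members. Areg ranged from 0 to 136 UMIs among TAC members and from 0 to 39 among sham members, with a median of 0 in both. Summed over members, Gdf15 stood at 940.3 CPM in TAC and 709 CPM in sham, a ratio of 1.33. Areg stood at 265 CPM in TAC and 164 CPM in sham, a ratio of 1.62. A single barcode held 9.38% of the TAC members' Areg UMIs and another 4.86% of the sham members'. Because members were chosen by these UMIs, the ratios describe the chosen barcodes and are no test of a difference between the libraries. Most members owed their place to Gdf15. Barcodes with at least 3 UMIs of Gdf15 and fewer than 3 of Areg made up 223 of 326 TAC members (68.4%) and 278 of 377 sham members (73.7%). Those with at least 3 of Areg and fewer than 3 of Gdf15 numbered 65 (19.9%) in the TAC library and 75 (19.9%) in the sham library. Both genes reached 3 UMIs in 30 TAC members (9.20%) and 15 sham members (3.98%), and 8 TAC and 9 sham members reached 3 only with the 2 genes added. Members held 65.4% of all Gdf15 UMIs and 57.9% of all Areg UMIs in the kept TAC barcodes, of which they were 5.82%. In the sham library they held 63.8% and 64.0%, and were 9.04% of the kept barcodes. At the edge of the rule, 52 TAC and 70 sham members had exactly 3 UMIs of the genes together, and 83 TAC and 104 sham barcodes just outside it had 2.

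**Figure D1:**
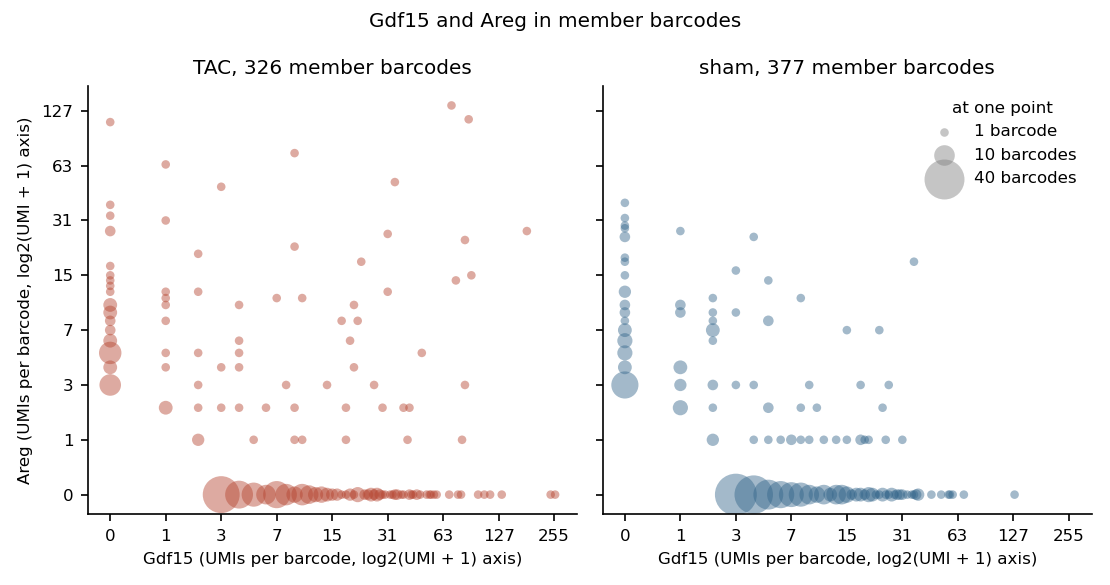
UMIs of Gdf15 (horizontal) and Areg (vertical) in each member barcode of the TAC library (left) and the sham library (right), on log2(UMI + 1) axes; the area of a point grows with the number of barcodes at that pair of counts. Most barcodes lie along an axis, with Areg at 0 in 209 of 326 TAC members and 257 of 377 sham members, and the points highest in both genes belong to the TAC library.

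At the mitochondrial limit of 10%, the share of such cells was close in the 2 libraries when counted among eligible macrophages. Eligible barcodes are those that met every other part of the rule. The share was 12.9% of 2536 eligible TAC barcodes (exact Clopper-Pearson interval 11.6 to 14.2%) and 12.3% of 3058 eligible sham barcodes (11.2 to 13.5%), a ratio of 1.04 (0.908 to 1.20). With a mitochondrial limit of 25% the shares were 11.4% of 3020 in TAC and 9.64% of 7013 in sham. The ratio was then 1.19 (1.05 to 1.34). After each barcode was thinned to 5000 UMIs and shallower ones left out, the shares were 7.63% of 2438 in TAC and 7.76% of 2898 in sham. Counted among all kept barcodes, the share was 5.82% in TAC and 9.04% in sham, since eligible barcodes were 2536 of 5601 kept ones in TAC and 3058 of 4169 in sham. Rates in cells with little C1q are set beside the shares of eligible macrophages. At least 3 UMIs of the pair were seen in 8 of 223 TAC and 2 of 189 sham fibroblast-marker barcodes (3.59% and 1.06%, median depths 14334 and 8582 UMIs), and in 5 of 602 TAC neutrophil-marker barcodes (0.831%, median depth 4927 UMIs). The shares of eligible macrophages stood above these rates, which were not matched for depth. RNA made by these other cells and free RNA cannot be told apart here, and the part of free RNA was not tested. The 16 neutrophil-marker and 7 T-marker barcodes of the sham library were too few to serve, with 0 and 1 at 3 UMIs, and in TAC 3 of 76 T-marker barcodes (3.95%) reached it, mostly through Areg, which T cells can make. Macrophage-like barcodes left out of the rule also held the genes: 14.6% of 405 TAC and 21.1% of 180 sham cycling barcodes and 13.5% of 414 TAC and 13.3% of 143 sham barcodes with S100a8 and S100a9 reached 3 UMIs. These were deeper, with medians of 22499 (TAC) and 14416 (sham) UMIs in cycling barcodes and 18998 and 11215 UMIs in the others. Eligible barcodes had medians of 13745.5 (TAC) and 8878.5 (sham) UMIs. Among barcodes with 10 to 25% mitochondrial UMIs the share that reached 3 UMIs was 3.93% of 484 in TAC and 7.56% of 3955 in sham, at median depths of 3729 and 6191 UMIs.

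The label of the cells was checked against the markers given for it. Hmox1, which encodes the heme-degrading enzyme heme oxygenase 1, stood at 1246 against 348 CPM in TAC members and comparison barcodes, 3.58-fold (3.47 to 3.69) higher, and at 882 against 659 CPM in the sham library, 1.34-fold (1.29 to 1.38) higher. It was therefore past 1.5-fold in the TAC library and short of it in the sham library. Ecm1, which encodes extracellular matrix protein 1, stood at 141 against 133 CPM in the TAC library and 144 against 128 CPM in the sham library, with ratios of 1.06 and 1.12, and so did not mark the members in either. The macrophage markers were present. Of 13 macrophage markers 10 were tested outside the rule, and none was called lower in either library. Over all tested genes 5.48% were called lower in TAC and 2.03% in sham, so 0 of 10 is near the overall share. Cd14, a co-receptor for bacterial lipopolysaccharide, was called higher in the TAC library at 1730.2 against 1062 CPM. Csf1r, the receptor for the macrophage growth factor CSF1, stood at 330.1 against 397 CPM in TAC and 671 against 783 CPM in sham, and C1qa at 6463 against 8064 CPM in TAC and 5836 against 6766 CPM in sham. Ecm1, and Hmox1 in the sham library, therefore go against their use as markers of these cells, which are called here by the rule, macrophages with Gdf15 or Areg.

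RNA of other cell types was looked for in the members. At least 5 UMIs of another type's defining genes were found in 12 of 326 TAC members (3.68%) against 5.22% of comparison barcodes, and in 37 of 377 sham members (9.81%) against 7.19%. B cell RNA accounted for 27 of the 37. These shares were not matched for depth, and members were deeper than comparison barcodes in both libraries. Il5 and Il13, defining genes of group 2 innate lymphoid cells, a known source of Areg, had 0 UMIs in the members of both libraries, as did the mast cell and basophil genes Ms4a2 and Mcpt8. With Gata3, the third defining gene of these lymphoid cells, 0 of 326 TAC and 1 of 377 sham members reached 5 UMIs, against 0 comparison barcodes of either library. Summed levels of marker lists are given for members and then comparison barcodes. The 11 T cell genes summed to 6.03 and 10.4 CPM in TAC and 18.2 and 13.9 CPM in sham, the 13 neutrophil genes to 114 and 97.8 CPM in TAC and 84.1 and 84.5 CPM in sham, and the 8 B cell genes to 132 and 216 CPM in TAC and 349.9 and 329.9 CPM in sham. The 10 fibroblast genes summed to 313 and 323 CPM in TAC and 283 and 424 CPM in sham, the 10 endothelial genes to 139 and 209 CPM in TAC and 103 and 201 CPM in sham, and the 13 cardiomyocyte genes to 70.6 and 112 CPM in TAC and 107 and 186 CPM in sham. Taken gene by gene, these lists did not all follow their sums. For scale, 5.93% of all tested genes were called higher and 5.48% lower in TAC members, and 3.37% and 2.03% in sham members. Counts of 0 or 1 in lists of this size are near those shares. Of the fibroblast genes, 5 of 8 tested were called higher and 1 lower in TAC members, against 0 of 7 higher and 4 lower in sham members, with median log2 ratios of 0.78 and -0.72. The sums rest on Gsn and Dcn, while the 5 called higher in TAC were the collagen genes Col1a1, Col1a2 and Col3a1, the matrix protein gene Lum and Postn, which encodes periostin of activated fibroblasts. A single barcode held 29.2% of the list's UMIs in TAC members. Of the endothelial genes, 1 of 7 tested were called higher and 3 lower in TAC members, against 0 of 8 higher and 6 lower in sham members, and of the cardiomyocyte genes, 0 of 10 tested were called higher and 6 lower in TAC members, against 0 of 9 higher and 8 lower in sham members. The 5 red cell genes differed most in TAC, at 229 and 1853 CPM in TAC and 2421 and 2264 CPM in sham, and 8 natural killer cell genes stood at 29.8 and 124 CPM in TAC and 37.8 and 44.3 CPM in sham. The 8 dendritic cell genes summed to 66.2 and 79.4 CPM in TAC and 93.9 and 93.03 CPM in sham and the 11 mast cell and basophil genes to 23.03 and 22.7 CPM in TAC and 10.4 and 9.03 CPM in sham, while eosinophil, platelet and mural cell lists stayed at or below 10.5 CPM in every set. The 9 genes of innate lymphoid cells summed to 74.4 and 20.1 CPM in TAC and 64.7 and 30.9 CPM in sham, and most of that sum in members was Il7r, which is described below. What part these RNAs have in the results below was not tested beyond the values given without the barcodes that carry them.

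Beyond the genes of the rule, the macrophages with Gdf15 or Areg carried more RNA of inflammatory genes in both libraries and, by smaller ratios, more of antioxidant and somewhat less of resident macrophage genes. In the TAC library 532 of 8973 tested genes (5.93%) were called higher in members and 492 (5.48%) lower, and in the sham library 307 of 9113 (3.37%) were called higher and 185 (2.03%) lower. Among 8618 genes tested in both, 173 (2.01%) were higher in members of both libraries, which is 38.1% of the TAC calls and 64.3% of the sham calls there. Only 42 (0.487%) were lower in both, 9.27% of the TAC calls and 28.4% of the sham calls. Counts of gene lists below are to be read against the shares called in each library. The median log2 ratio over all tested genes was -0.08 in TAC and -0.01 in sham. With ratios centred on that median, 67.1% of the TAC calls were higher, against 52.0% without centring. The genes in the next paragraphs are the 15 highest and 15 lowest by the weaker of their ratios in the 2 libraries, among genes with at least 50 CPM in the higher set of each library.

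Cxcl3 and the cystine carrier gene Slc7a11 had the highest ratios of these genes. Slc7a11, which encodes the subunit of the cystine and glutamate exchanger that feeds glutathione synthesis, stood at 78.2 against 13.6 CPM in TAC, 5.76-fold (5.01 to 6.64), and at 54.3 against 8.99 CPM in sham, 6.04-fold (5.01 to 7.31). After thinning to 5000 UMIs, which left out 5 members and 88 comparison barcodes in TAC and 7 and 143 in sham, a UMI of it was found in 16.5% of TAC members against 4.05% of TAC comparison barcodes (24.2% against 7.89% unthinned) and in 9.19% of sham members against 2.14% of sham comparison barcodes (13.5% against 3.36% unthinned). Cxcl3, a neutrophil-attracting chemokine, ranked first, at 149 against 14.6 CPM or 10.2-fold (9.05 to 11.5) in TAC and 53.3 against 8.34 CPM or 6.39-fold (5.26 to 7.76) in sham. A single barcode held 32.5% of the TAC members' Cxcl3 and another 27.2% of the sham members', and without these the ratios were 7.57 and 5.10. Its relative Cxcl1, eleventh in the ranking, was 3.71-fold (TAC) and 2.46-fold (sham) higher, at 558 against 150.2 CPM and 318 against 129 CPM. After thinning, Cxcl3 was found in 14.3% of TAC members against 3.12% of TAC comparison barcodes (19.6% against 5.07% unthinned) and in 7.03% of sham members against 1.81% of sham comparison barcodes (11.7% against 2.53% unthinned). Most members therefore had no Cxcl3 or Slc7a11 UMI at this depth.

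Receptors and regulators of innate signalling were among the 15 too. Clec4e and Clec4d encode the lectin receptors Mincle and MCL for microbial glycolipids. Clec4e stood at 176 against 60.3 CPM in TAC and 60.8 against 15.6 CPM in sham, 2.91-fold (TAC) and 3.89-fold (sham) higher, and Clec4d was 2.60-fold (TAC) and 3.52-fold (sham) higher. Il1rn, the secreted antagonist of the interleukin-1 receptor, stood at 177 against 67.5 CPM in TAC and 83.7 against 21.3 CPM in sham, ratios of 2.63 and 3.93. Tnf, the tumour necrosis factor gene, was at 607 against 267 CPM in TAC and 269 against 115 CPM in sham, 2.28-fold (TAC) and 2.33-fold (sham) higher. Tnip3, an NF-kB inhibitor, was 3.01-fold (TAC) and 2.50-fold (sham) higher, Tnfaip2, a TNF-induced gene, 2.30-fold (TAC) and 2.66-fold (sham), and Tnfsf9, the ligand of the co-stimulatory receptor 4-1BB, 3.22-fold (TAC) and 2.24-fold (sham). Plaur, the urokinase receptor, was 2.56-fold (TAC) and 2.69-fold (sham) higher. Txnrd1, the cytosolic thioredoxin reductase, was at 154 against 62.3 CPM in TAC and 108 against 39.5 CPM in sham, 2.48-fold (TAC) and 2.72-fold (sham) higher. Mdm2, the ubiquitin ligase that degrades p53, was 2.68-fold (TAC) and 2.22-fold (sham) higher, and Rgcc, a regulator of the cell cycle, 3.32-fold (TAC) and 2.61-fold (sham). Fabp5, a fatty acid binding protein, was 3.01-fold (TAC) and 3.19-fold (sham) higher, but 1 barcode held 31.5% of its TAC UMIs and 47.4% of its sham UMIs, and the ratios without these were 2.42 and 1.91. All 15 of these genes stayed past 1.5-fold in both libraries without the barcode that held most of each.

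**Figure D2:**
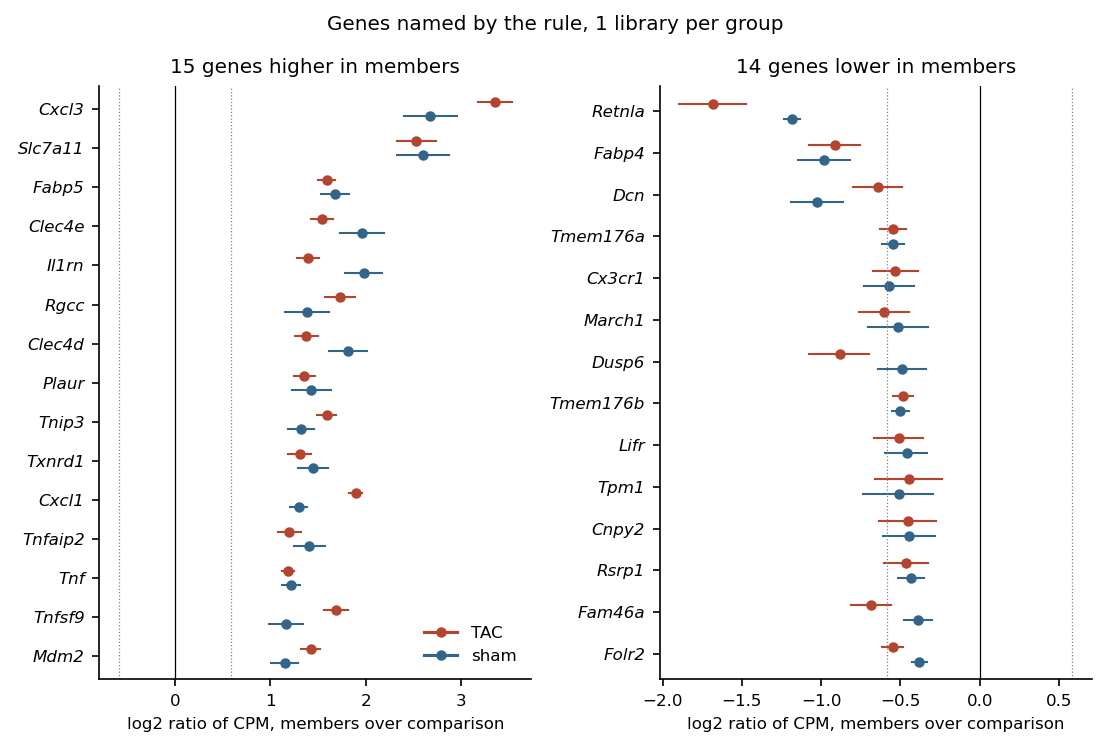
The log2 ratio of CPM in members over comparison barcodes for the 15 genes most evenly higher (left) and 14 of the 15 most evenly lower (right), with TAC and sham as separate points, exact 95% intervals for counting error as bars and dotted lines at 1.5-fold. All 15 genes on the left lie past 1.5-fold in both libraries, and of the 14 on the right 6 do so in TAC and 3 in sham.

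Differences on the low side were smaller. Of the 15 lowest by the same rule, 6 passed 1.5-fold in TAC and 3 in sham. Retnla, which encodes the secreted protein RELM-alpha of alternatively activated and resident macrophages, was at 36.01 against 115 CPM in TAC, 3.20-fold lower, and at 725 against 1648 CPM in sham, 2.28-fold lower. A single barcode held 65.5% of the TAC members' Retnla, and without the top barcode of each set the gene was 5.26-fold lower there. After thinning, Retnla was found in 2.49% of TAC members against 3.23% of TAC comparison barcodes (3.99% against 5.48% unthinned) and in 25.1% of sham members against 25.3% of sham comparison barcodes (32.4% against 29.9% unthinned). Fabp4, an endothelial and adipocyte fatty acid binding protein, and the fibroblast gene Dcn were lower too, Fabp4 by 1.88-fold (TAC) and 1.98-fold (sham) and Dcn by 1.56-fold (TAC) and 2.03-fold (sham). Once barcodes with RNA of another cell type were left out of both sets, Fabp4 turned to the other side of 0, with log2 ratios of 0.30 in TAC and 0.22 in sham, and Dcn came to -0.36 and -0.33. Dusp6, a phosphatase that ends ERK signalling, was 1.84-fold (TAC) and 1.40-fold (sham) lower, Fam46a 1.61-fold (TAC) and 1.31-fold (sham) and March1, which removes MHC class II from the surface, 1.52-fold (TAC) and 1.43-fold (sham). The fractalkine receptor Cx3cr1, the folate receptor Folr2, the membrane proteins Tmem176a and Tmem176b, the cytokine receptor Lifr, and Tpm1, Cnpy2 and Rsrp1 were lower by 1.36- to 1.46-fold in TAC and 1.30- to 1.48-fold in sham, short of the threshold.

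Promoter sequences of the genes that define or lead the set are given so that the motifs can be seen in place. The sequences are RefSeq's on GRCm38.p6, printed in lower case, from 250 bases before to 50 bases after a gene's start, 5′ to 3′ on the gene's strand. Areg (ENSMUSG00000029378, protein coding, chromosome 5, 91139599 to 91148432, plus strand in GENCODE vM21) is shown because it defines members, and capitals mark the cAMP response element TGACGTCA, which begins at -61. Cxcl1 and Cxcl3, neighbours of Areg on the same chromosome, are shown as higher genes with an NF-kB motif in capitals (GGG, any 2 bases and TTTCC, on either strand). Txnrd1 is shown as a higher antioxidant gene with the antioxidant response element TGACNNNGC in capitals, here on the opposite strand and at 1 of its 3 starts in the table.
Areg chr5:91139349-91139648 (+): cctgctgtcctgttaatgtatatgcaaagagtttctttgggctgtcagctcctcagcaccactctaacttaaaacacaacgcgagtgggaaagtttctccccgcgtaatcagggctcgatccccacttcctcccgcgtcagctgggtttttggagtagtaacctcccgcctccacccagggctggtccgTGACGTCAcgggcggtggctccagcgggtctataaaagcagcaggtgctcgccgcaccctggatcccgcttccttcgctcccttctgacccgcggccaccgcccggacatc
Cxcl1 chr5:90890995-90891294 (+): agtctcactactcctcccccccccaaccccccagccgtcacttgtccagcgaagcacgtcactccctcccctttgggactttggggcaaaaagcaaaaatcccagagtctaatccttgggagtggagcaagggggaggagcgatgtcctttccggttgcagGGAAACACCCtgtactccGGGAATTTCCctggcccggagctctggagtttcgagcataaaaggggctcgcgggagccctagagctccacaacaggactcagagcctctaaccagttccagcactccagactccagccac
Cxcl3 chr5:90785851-90786150 (+): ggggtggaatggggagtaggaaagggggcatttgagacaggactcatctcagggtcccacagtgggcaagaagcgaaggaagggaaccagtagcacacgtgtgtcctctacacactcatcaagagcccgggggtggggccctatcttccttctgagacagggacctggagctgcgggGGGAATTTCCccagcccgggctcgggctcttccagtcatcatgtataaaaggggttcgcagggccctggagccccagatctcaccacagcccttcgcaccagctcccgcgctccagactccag
Txnrd1 chr10:82858956-82859255 (+): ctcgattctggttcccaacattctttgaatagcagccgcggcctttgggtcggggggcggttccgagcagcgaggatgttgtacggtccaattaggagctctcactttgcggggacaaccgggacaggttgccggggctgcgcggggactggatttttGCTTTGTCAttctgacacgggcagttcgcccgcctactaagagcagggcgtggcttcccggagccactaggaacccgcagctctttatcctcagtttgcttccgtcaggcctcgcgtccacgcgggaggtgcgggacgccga
Of the 15 genes that were higher, 13 had a promoter in the table. A gene with several starts was counted if any of its windows held the motif, whereas the shares of all are per promoter. The NF-kB motif was in 3 of the 13 (Cxcl1, Cxcl3 and Il1rn) and in 1.63% of all 32851 promoters. In Il1rn it was 1 site seen in overlapping windows, at 29 from 1 start and -51 from another. The antioxidant element was in 2 (Tnfaip2 and Txnrd1) and in 12.4% of all, and the AP-1 motif TGANTCA was in 2 (Il1rn and Plaur) and in 7.81% of all. The C/EBP-ATF motif TGATGNAAT (0.965% of all) and the cAMP element (1.79% of all) were in 0 of the 13. Only these letters were counted. The Slc7a11 window holds TGATGCAAA, which differs from the C/EBP-ATF letters in the last base and so was not counted. Both strands were searched, and none of these letters occurred in the Gdf15 windows. A match is a description of the letters and says nothing of whether a factor binds there.

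By function, the inflammatory genes of the NF-kB pathway were the list with the most calls. NF-kB is a transcription factor family that is released when innate receptors or cytokine receptors are engaged and drives cytokine, chemokine and feedback genes. In TAC members 19 of 29 tested genes of this list were higher, in sham members 20 of 30, and 0 were lower in either. The shares over all tested genes were 5.93% higher and 5.48% lower in TAC, and 3.37% and 2.03% in sham. The median log2 ratio was 0.88 in TAC and 0.80 in sham, beside -0.08 and -0.01 over all tested genes. Il1a, the interleukin-1 alpha gene, was at 60.7 against 10.9 CPM in TAC and 29.6 against 7.02 CPM in sham, 5.55-fold (TAC) and 4.22-fold (sham) higher. Ptgs2, the inducible cyclooxygenase, was 2.94-fold (TAC) and 2.96-fold (sham) higher, and Il1b, interleukin-1 beta, was at 1255 against 660.0 CPM and 640.5 against 284 CPM. Cxcl2, the most abundant of the list's chemokines, was at 9676 against 4310.1 CPM in TAC and 5662 against 2716 CPM in sham, 2.24-fold (TAC) and 2.08-fold (sham) higher. Ccl2, a monocyte-attracting chemokine, was at 2653 against 2515 CPM in TAC, a ratio of 1.05, and at 1722 against 1149 CPM in sham. The anti-inflammatory cytokine gene Il10 was 2.07-fold (TAC) and 2.31-fold (sham) higher, so the genes that were higher included the inhibitors Il10 and Il1rn beside the agonists.

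More antioxidant genes passed 1.5-fold in the TAC library than in sham, a difference between libraries that was not tested. The share of all tested genes called higher was also larger in TAC, at 5.93% against 3.37% in sham, with 5.48% and 2.03% called lower. NRF2 is the transcription factor that electrophiles and oxidants release to drive antioxidant enzymes. Of its 23 tested targets, 14 were higher in TAC members and 5 in sham members, with median log2 ratios of 0.64 and 0.36 and 0 lower. Ratios above 1 were found for 18 of the 23 in TAC and 22 of the 23 in sham. Srxn1, which repairs oxidised peroxiredoxins, was at 50.8 against 13.3 CPM in TAC and 25.1 against 9.35 CPM in sham, 3.84-fold (TAC) and 2.68-fold (sham) higher. Sqstm1, the autophagy adaptor p62, was 2.22-fold (TAC) and 1.86-fold (sham) higher, and Gclm, a subunit of the glutathione synthesis enzyme, 1.90-fold (TAC) and 1.43-fold (sham). Fth1, the ferritin heavy chain, was at 17773 against 9699 CPM in TAC and 12315 against 8897 CPM in sham, 1.83-fold (TAC) and 1.38-fold (sham). Slc48a1, Cat and Blvrb, named as the lowest of the list, had ratios of 0.987, 0.854 and 0.773 in TAC and 1.27, 1.02 and 0.964 in sham. Of the heme and iron genes, some of which are also in this list, 6 of 19 tested were higher and 0 lower in TAC, and 2 of 19 higher and 0 lower in sham. Slc40a1, the iron exporter ferroportin, was at 14.3 against 3.61 CPM in TAC and 51.7 against 31.9 CPM in sham. A single TAC barcode held 43.6% of it, and the ratio of 3.95 was 2.42 without that barcode. Spic, a transcription factor of iron-recycling macrophages, was 2.46-fold (TAC) and 1.40-fold (sham) higher.

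Targets of p53, the transcription factor stabilised by DNA damage and other stress, and of the integrated stress response were examined because Gdf15 is known as a target of both. Of the p53 targets, 6 of 18 tested were higher and 1 lower in TAC, and 8 of 18 higher and 0 lower in sham, with median log2 ratios of 0.46 and 0.43. Cdkn1a, the cell cycle inhibitor p21, was at 1199 against 623 CPM in TAC and 943 against 487 CPM in sham, 1.92-fold (TAC) and 1.94-fold (sham) higher. Phlda3, an inhibitor of Akt, was 2.07-fold (TAC) and 2.97-fold (sham) higher. Sesn1, a stress-induced inhibitor of growth signalling, was 2.10-fold (TAC) and 1.47-fold (sham) lower. In the integrated stress response, in which phosphorylation of eIF2-alpha raises translation of ATF4, 9 of 22 tested were higher and 0 lower in TAC, and 3 of 21 higher and 1 lower in sham, with medians of 0.20 and 0.16. Slc7a11 belongs to this list as well as to the NRF2 list. Sesn2 was 1.67-fold (TAC) and 1.62-fold (sham) higher, Atf4 itself was at 298 against 186 CPM in TAC and 273 against 215 CPM in sham, and Ddit3, which encodes CHOP, was at 100.4 against 64.1 CPM and 77.4 against 70.2 CPM. Of the endoplasmic reticulum chaperones, 0 of 18 tested were higher in TAC and 0 of 18 in sham. Sdf2l1, a chaperone cofactor, was called lower in TAC, at 181 against 281 CPM in TAC and 136 against 145 CPM in sham. Of the heat shock genes, 1 of 17 tested were higher and 0 lower in TAC, and 0 of 17 higher and 1 lower in sham. With 5.93% of all tested genes called higher in TAC and 3.37% in sham, counts of 0 or 1 in lists of this size are near the overall share.

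**Figure D3:**
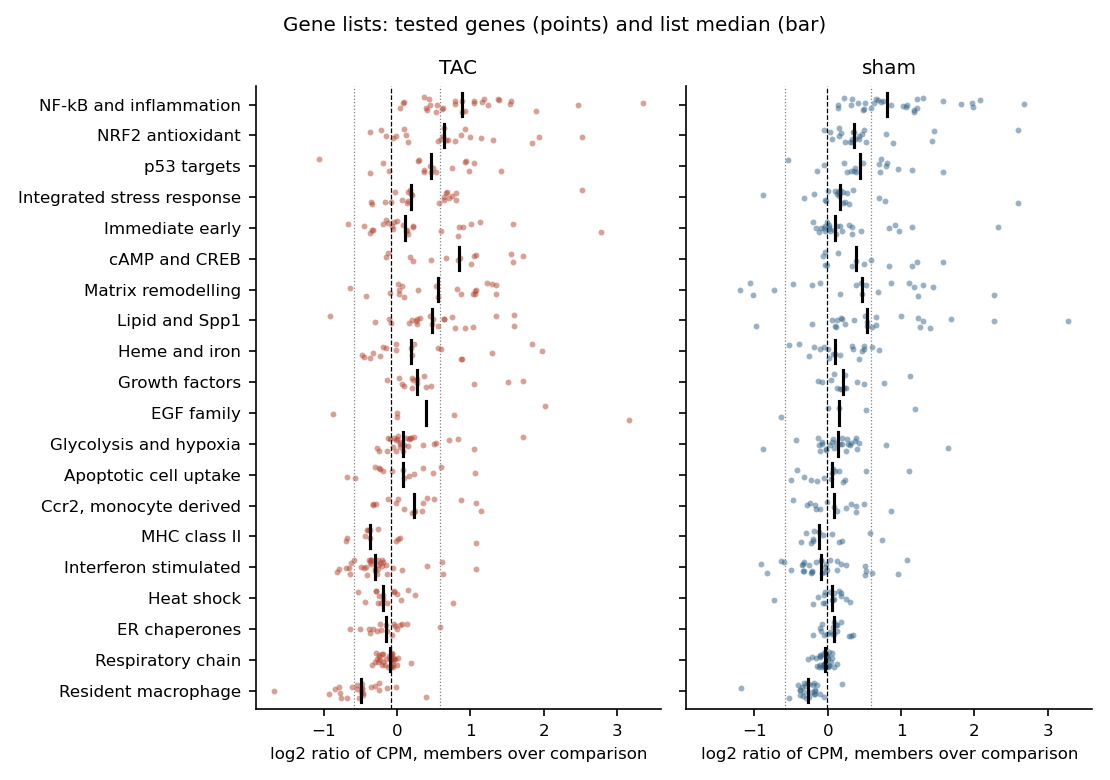
The log2 ratio of CPM in members over comparison barcodes for every tested gene of 20 gene lists (points) in the TAC library (left) and the sham library (right), with a bar at each list's median, a dashed line at the median of all tested genes and dotted lines at 1.5-fold. The NF-kB list has the highest median in both libraries, at 0.88 in TAC and 0.80 in sham, and the resident macrophage list the lowest, at -0.49 in TAC and -0.27 in sham.

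Fast-response genes split within their list. Of the immediate early genes, 8 of 26 tested were higher and 1 lower in TAC, and 5 of 26 higher and 0 lower in sham. Beside these counts, 5.93% of all tested genes were called higher and 5.48% lower in TAC, and 3.37% and 2.03% in sham. Fosl1, which encodes the AP-1 subunit FRA1, was at 13.9 against 2.02 CPM in TAC and 11.2 against 2.25 CPM in sham, 6.87-fold (TAC) and 4.998-fold (sham). Nr4a3, an orphan nuclear receptor, was 2.98-fold (TAC) and 2.21-fold (sham) higher and Maff, a small Maf protein, 2.19-fold (TAC) and 1.89-fold (sham). Fos and Jun, the classical AP-1 pair, were not called higher: Fos was at 2171 against 2968 CPM in TAC and 4367 against 4726 CPM in sham, and Jun, called lower in TAC, at 1529 against 2436 CPM and 3538 against 4065 CPM. Areg is known as a target of cAMP signalling through CREB. Of the cAMP and CREB genes, 9 of 14 tested were higher and 0 lower in TAC, and 5 of 13 higher and 0 lower in sham. Nr4a3, Ptgs2 and Il10 were among them in both libraries and stand in other lists too. Vegfa, the vascular endothelial growth factor gene, was at 36.6 against 11.2 CPM in TAC, 3.28-fold higher, and at 5.31 against 1.83 CPM in sham, where it was below the minimum for testing. The abundant genes of the list differed little, and Dusp1, Fosb and Per1 had ratios of 0.918, 0.900 and 1.13 in TAC and 0.990, 0.975 and 0.976 in sham.

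Genes of secreted repair factors and of matrix turnover were partly higher. Of all tested genes, 5.93% were called higher in TAC and 3.37% in sham, and 5.48% and 2.03% lower. Counts of 1 to 3 in the lists below rest on few genes. Ereg, a close relative of Areg and like it an EGFR ligand, had 6 UMIs in all TAC members and 4 in all sham members, and was not tested. Hbegf, another EGFR ligand, was at 24.7 against 6.10 CPM in TAC and 44.1 against 19.3 CPM in sham, 4.04-fold (TAC) and 2.28-fold (sham) higher, with 37.8% of the TAC UMIs in 1 barcode and a ratio of 2.66 without it. Rhbdf2, which carries the sheddase ADAM17 to the surface, was 1.71-fold (TAC) and 1.43-fold (sham) higher, and Adam17 itself had ratios of 1.003 and 1.11. Egfr was lower at 2.92 against 5.52 CPM in TAC and 7.76 against 12.2 CPM in sham. Of the 15 EGF family genes, 3 of 6 tested were higher and 1 lower in TAC, and 1 of 5 higher and 1 lower in sham. Nrg1, a ligand of ERBB receptors and 1 of the 3 in TAC, had 79.7% of its UMIs in 1 barcode. Of other growth factors, 3 of 15 tested were higher and 0 lower in TAC, and 2 of 14 higher and 0 lower in sham. Pdgfa, a mitogen of fibroblasts, was 2.86-fold (TAC) and 1.70-fold (sham) higher, and Osm, oncostatin M, 2.07-fold (TAC) and 1.41-fold (sham). Of the matrix remodelling genes, 10 of 21 tested were higher and 1 lower in TAC, and 8 of 20 higher and 4 lower in sham. The fibroblast genes described above were called higher in TAC members as well, and once barcodes with RNA of another cell type were left out the median log2 ratio of the matrix list was 0.83 in TAC and 0.45 in sham, against 0.56 and 0.46 with them. Mmp14, a membrane-bound metalloproteinase, was 2.55-fold (TAC) and 2.33-fold (sham) higher and the protease gene Adam8 2.35-fold (TAC) and 2.25-fold (sham). Tgm2, tissue transglutaminase, was 2.09-fold (TAC) and 2.15-fold (sham) higher and is also in the list of apoptotic cell uptake, of which 2 of 15 tested were higher and 1 lower in TAC, and 1 of 15 higher and 0 lower in sham.

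Lipid-associated macrophage genes were also higher in part, beside 5.93% of all tested genes called higher in TAC and 3.37% in sham. Of the lipid and Spp1 list, 9 of 23 tested were higher and 1 lower in TAC, and 11 of 24 higher and 1 lower in sham, with median log2 ratios of 0.48 and 0.53. Gpnmb, a glycoprotein of lysosome-rich macrophages, was at 44.8 against 14.8 CPM in TAC and 22.3 against 2.29 CPM in sham, 3.03-fold (TAC) and 9.71-fold (sham) higher, with 38.5% of the sham UMIs in 1 barcode and a ratio of 7.65 without it. Spp1, osteopontin, was at 152 against 103 CPM in TAC, 1.47-fold and so not called, and at 67.8 against 14.03 CPM in sham, 4.83-fold. Lgals3, galectin-3, was at 2150.3 against 1126 CPM in TAC and 802 against 336 CPM in sham, 1.91-fold (TAC) and 2.39-fold (sham) higher, and was found after thinning in 94.7% of TAC members against 85.8% of TAC comparison barcodes (98.5% against 94.05% unthinned) and in 73.8% of sham members against 53.7% of sham comparison barcodes (84.9% against 64.6% unthinned). Apoe, the most abundant of the list, had ratios of 0.942 and 0.857.

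Most resident macrophage genes had ratios below 1, and few passed 1.5-fold. Of all tested genes, 5.48% were called lower and 5.93% higher in TAC, and 2.03% lower and 3.37% higher in sham. Counts of 0 or 1 in the lists of this paragraph are near those shares. In TAC members 8 of 24 tested genes were lower and 0 higher (median log2 -0.49), and in sham members 1 of 26 (Retnla) was lower and 0 higher (median -0.27). Lyve1, a hyaluronan receptor of perivascular resident macrophages, was at 362 against 620.0 CPM in TAC, 1.71-fold lower, and at 778 against 972 CPM in sham, 1.25-fold lower. Timd4, a phosphatidylserine receptor, was 1.60-fold (TAC) and 1.25-fold (sham) lower. Folr2, at 409 against 598 CPM in TAC and 883 against 1150.4 CPM in sham, was found after thinning in 52.3% of TAC members against 60.8% of TAC comparison barcodes (65.3% against 70.2% unthinned) and in 81.4% of sham members against 87.2% of sham comparison barcodes (86.5% against 88.8% unthinned). Of the genes of monocyte-derived macrophages, 3 of 17 tested were higher and 0 lower in TAC, and 1 of 15 higher and 0 lower in sham. Ccr2, the receptor that brings monocytes to tissue, was at 77.1 against 96.8 CPM in TAC and 80.8 against 86.9 CPM in sham. Fn1, fibronectin, was 1.83-fold (TAC) and 1.82-fold (sham) higher and Thbs1, thrombospondin 1, 2.12-fold (TAC) and 1.30-fold (sham). With comparison barcodes weighted to the members' depth, the sham log2 ratio of Fn1 turned to -0.24. Of the MHC class II and co-stimulatory genes, 1 of 12 tested were higher and 2 lower in TAC, and 1 of 13 higher and 0 lower in sham. Their activator Ciita was at 50.8 against 82.4 CPM in TAC and 42.9 against 55.5 CPM in sham, and the co-stimulatory gene Cd80 was 2.09-fold (TAC) and 1.48-fold (sham) higher. Of the interferon-stimulated genes, 3 of 34 tested were higher and 6 lower in TAC, and 3 of 33 higher and 4 lower in sham, with Oasl1 2.11-fold (TAC) and 2.11-fold (sham) higher and Ifit2 1.498-fold (TAC) and 1.57-fold (sham) lower. Few metabolic genes were called: 0 of 33 respiratory chain genes and 0 of 13 mitochondrial genome genes were called in either library, and of the glycolysis and hypoxia genes 4 of 29 tested were higher and 0 lower in TAC, and 2 of 28 higher and 1 lower in sham. Il7r, the interleukin-7 receptor chain, was noticed after its values were seen. It was at 68.9 against 14.6 CPM in TAC and 36.95 against 6.19 CPM in sham, 4.71-fold (TAC) and 5.97-fold (sham) higher.

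The levels were also followed across barcodes with rising counts of Gdf15 and Areg, which describes the rule's own axis. Barcodes with 0, 1, 2, 3, 4, 5 to 14 and at least 15 UMIs of the pair numbered 1915, 212, 83, 52, 24, 145 and 105 in TAC and 2295, 282, 104, 70, 45, 174 and 88 in sham. In that order of bins, Slc7a11 stood at 13.6, 30.5, 19.7, 50.7, 47.9, 41.6 and 147 CPM in TAC and at 8.99, 10.5, 33.1, 36.6, 9.002, 70.9 and 58.3 CPM in sham. Its level thus did not climb from bin to bin, and the sham bin of 4 UMIs, with 5 UMIs of the gene, was at the level of the 0 bin. Mdm2 stood at 88.5, 113, 123, 172, 159.7, 211 and 322 CPM in TAC and at 54.6, 71.5, 117, 84.1, 93.6, 107 and 189 CPM in sham. Folr2 was at 598 CPM in the 0 bin and 337 CPM in the highest bin of TAC, and at 1150.4 and 730.2 CPM in those of sham. Barcodes just inside the rule, at 3 UMIs, differed little from those just outside it, at 2, in some genes and by several fold in others. Cxcl2 was at 7281 CPM at 3 and 6647 CPM at 2 in TAC and at 3733 and 4470.0 CPM in sham. Fabp5 was at 598 and 286 CPM in TAC and 48.5 and 223 CPM in sham, Spp1 at 132 and 603 CPM in TAC, and Retnla at 234 and 1536 CPM in sham. Hmox1 over the bins from 0 to at least 15 UMIs stood at 348, 647, 799.7, 700.2, 359, 1330.3 and 1609 CPM in TAC, with the bin of 4 near the level of the 0 bin, and at 659, 799, 886, 787, 706, 1003 and 813 CPM in sham. Ecm1 stayed between 120.4 and 152 CPM over the 7 bins of TAC and between 124 and 152 CPM over those of sham.

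**Figure D4:**
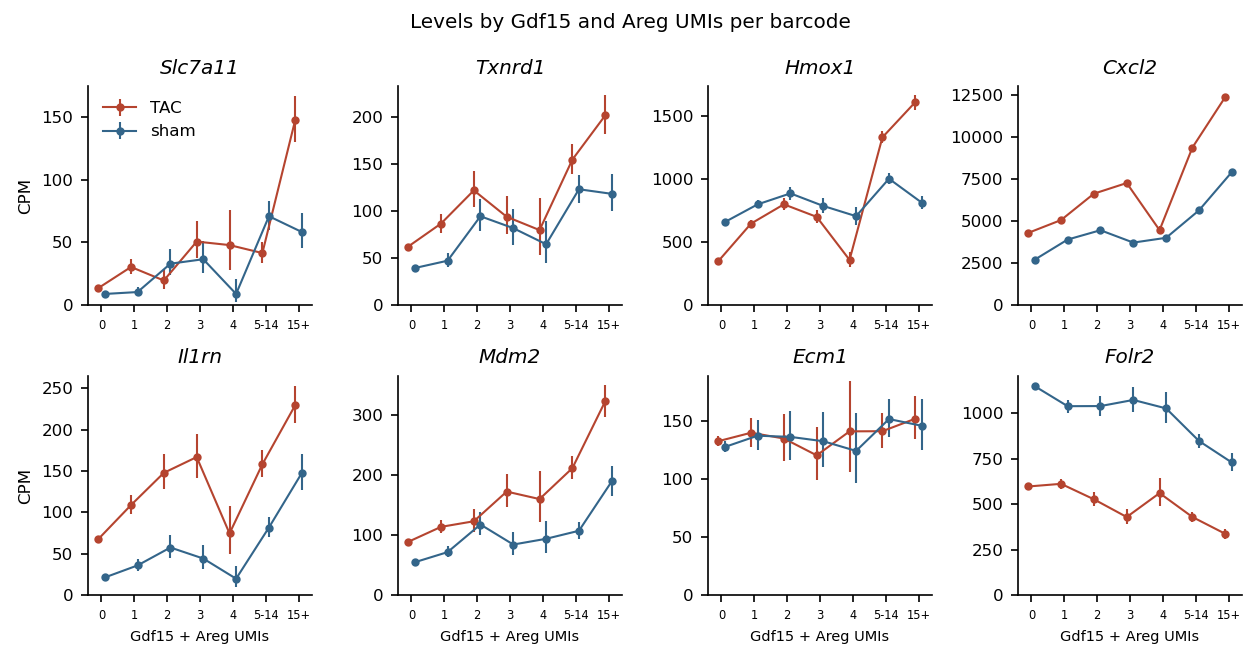
CPM of 8 genes by the number of Gdf15 and Areg UMIs per barcode, in the TAC and sham libraries, with exact Poisson 95% intervals for counting error. Slc7a11, Txnrd1, Cxcl2, Il1rn and Mdm2 are higher at 15 or more UMIs than at 0 in both libraries, Hmox1 most clearly in TAC, Ecm1 is nearly level and Folr2 is lower; the bin of 4 UMIs holds only 24 TAC and 45 sham barcodes.

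Members led by Gdf15 and members led by Areg were compared with each other, as a description added after the composition was seen. Of 4655 genes tested in TAC, 216 (4.64%) were higher in the 223 Gdf15-led barcodes and 196 (4.21%) lower than in the 65 Areg-led ones, and in sham 148 of 4921 (3.01%) were higher and 241 (4.9%) lower, with 278 and 75 barcodes. RNA of other cell types moved with this split, in opposite directions in the 2 libraries. The fibroblast genes summed to 402 against 115 CPM in Gdf15-led and Areg-led TAC members and 203 against 627 CPM in sham, and the endothelial genes to 147 against 78.02 CPM in TAC and 60.9 against 273 CPM in sham. The red cell genes summed to 303 against 88.9 CPM in TAC and 1199 against 7565 CPM in sham, where 1 barcode held 99.05% of the Areg-led sum. Their part in the split was not tested. Areg-led cells had more of several inflammatory genes in both libraries. Il1rn was at 121 against 258 CPM in Gdf15-led and Areg-led TAC members and 57.2 against 163 CPM in sham. Il1b was at 938 against 1545 CPM in TAC and 449 against 1339 CPM in sham, and Nlrp3, the sensor of an inflammasome that activates IL-1 beta, at 178 against 329 CPM and 87.5 against 201 CPM. Of the NF-kB list, 2 of 29 tested genes were higher and 7 lower in Gdf15-led TAC members, and 0 of 28 higher and 9 lower in sham. The survival genes Bcl2a1d and Bcl2a1a, near-identical copies whose reads could be split between them, were 2.32- and 1.71-fold lower in Gdf15-led TAC members and 2.78- and 3.41-fold lower in sham. Slc7a11, too, was lower in Gdf15-led cells, at 47.2 against 146 CPM in TAC and 47.4 against 86.02 CPM in sham, as were Oasl1, the ERK phosphatase gene Dusp5, the lysozyme gene Lyz1, Samsn1 and Cytip, by 1.80- to 2.92-fold in TAC and 1.72- to 2.92-fold in sham.

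Gdf15-led cells had more Vcam1, an adhesion molecule, at 138 against 29.6 CPM in TAC and 57.2 against 24.00 CPM in sham, and more Fabp5, at 366 against 76.04 CPM and 154 against 98.02 CPM, where the single barcodes that hold much of the Fabp5 count are Gdf15-led. Jun was at 1886 against 774 CPM in TAC and 3855 against 2496 CPM in sham, and Apoe, which carries lipids out of cells, at 13730.2 against 8960.1 CPM and 20467 against 13757 CPM. Gadd45g, a growth arrest gene, and Mgst1, a membrane glutathione transferase, were 1.82- and 2.13-fold higher in TAC and 1.66- and 1.94-fold higher in sham. Ddit3, Dnajb1, Dusp6 and Cnpy2 were 1.43- to 2.55-fold higher in TAC and 1.43- to 1.58-fold higher in sham. The p53 targets Cdkn1a and Mdm2 were close in the 2 kinds of member, with ratios of 0.927 and 0.989 in TAC and 1.05 and 1.01 in sham, and so was Hmox1 at 0.853 and 0.883. Cxcl3 and Mmp12 differed in opposite directions in the 2 libraries. Cxcl3 was at 167 against 86.9 CPM in TAC and 38.4 against 84.02 CPM in sham, and Mmp12, the macrophage elastase, at 57.8 against 3.95 CPM and 51.9 against 248 CPM. With 65 TAC and 75 sham Areg-led barcodes such values can rest on few cells.

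**Figure D5:**
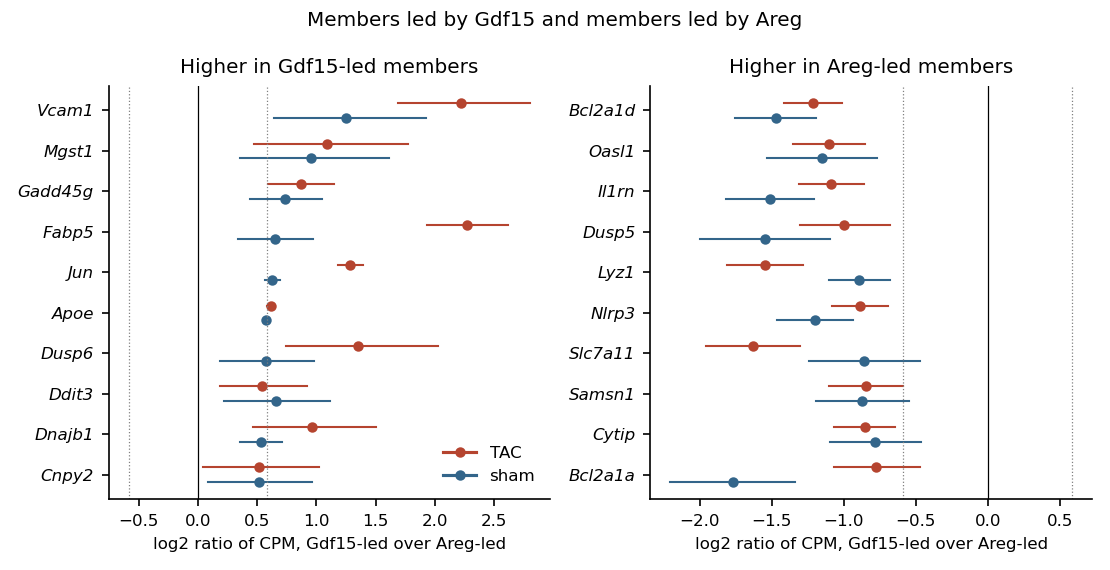
The log2 ratio of CPM in Gdf15-led over Areg-led members for the 10 genes most evenly higher in Gdf15-led members (left) and the 10 most evenly higher in Areg-led members (right), in TAC and sham, with exact 95% intervals for counting error and dotted lines at 1.5-fold. The genes on the right, among them Il1rn, Nlrp3 and Slc7a11, lie past 1.5-fold in both libraries.

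Between the 2 libraries, members differed in about the same share of tested genes as comparison barcodes did, and the libraries differ in operation, depth and mitochondrial share at once. Of 8937 genes tested in members, 986 (11%) were higher in TAC and 1933 (21.6%) lower, and of 11535 tested in comparison barcodes 1321 (11.5%) were higher and 2527 (21.9%) lower. The median log2 ratio was -0.11 in both, and with ratios centred on it 45.6% of the member calls were higher in TAC, against 33.8% without. The 10 highest and 10 lowest ratios were taken from genes that reached 50 CPM in TAC or sham members. Saa3, an acute-phase protein gene, had 2567 UMIs in TAC members and 0 in sham members, at least 766-fold higher when 3 UMIs over all sham members are taken as the limit of detection. Guanylate-binding proteins, interferon-induced GTPases, came next. Gbp2 was at 628 CPM in TAC members and 17.6 CPM in sham members, 35.8-fold (28.9 to 44.8), and 29.4-fold higher in TAC comparison barcodes. Gbp2b, Gbp4 and Gbp8 were 37.3-, 35.9- and 39.6-fold higher in TAC members. Ly6a, an interferon-induced surface protein, was 31.97-fold higher in members and 37.99-fold in comparison barcodes, and Serpina3g, Il18bp and Fam26f were 31.7-, 26.5- and 23.4-fold higher in members. Of the interferon list, 33 of 34 tested genes were higher in TAC members, as were 33 of 34 in comparison barcodes. The tenth by rank, Tm4sf1, had a log2 ratio of 4.29, but 1 TAC barcode held 96.5% of it, and the ratio without that barcode was 1.12.

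Lower in TAC members were resident and heat shock genes. Cd209f, a lectin receptor of resident macrophages, was at 0.548 CPM in TAC members (3 UMIs) and 61.5 CPM in sham members, 112-fold lower in TAC (37.98 to 546). Retnla was 20.1-fold lower in TAC members and 14.3-fold lower in TAC comparison barcodes, and the eosinophil chemokine Ccl24 16.8- and 14.9-fold. Hspa1b and Dnajb1, an inducible HSP70 and its co-chaperone, were 12.1- and 6.74-fold lower in TAC members. Chp2, Fam43a, Fam71a, Cmah and Plxnd1 were 6.22- to 7.99-fold lower. All 10 genes named so far were past 1.5-fold the same way in comparison barcodes, as were 9 of the 10 on the high side, Tm4sf1 being the exception. Haemoglobin genes were not ranked. Of the red cell genes, 4 of 4 tested were lower in TAC members, with log2 ratios from -4.14 to -3.13, and 0 of 5 in comparison barcodes. A single barcode held 62.4% of their UMIs in TAC members and another 63.2% in sham members, and without these the sums were 86.9 CPM in TAC and 894 CPM in sham. In members, 25 of 26 resident macrophage genes, 20 of 26 immediate early genes and 9 of 17 heat shock genes were lower in TAC. The counts in comparison barcodes were the same, at 25 of 26, 20 of 26 and 9 of 17. Over all tested genes, 21.6% were lower in TAC members and 21.9% in TAC comparison barcodes. The NF-kB list had 21 of 30 higher in TAC members and 20 of 30 in comparison barcodes, beside 11% and 11.5% of all tested genes.

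Hmox1 differed between the libraries in opposite directions in the 2 kinds of macrophage. In members it was at 1246 CPM in TAC and 882 CPM in sham, 1.41-fold (1.36 to 1.47) higher in TAC, while in comparison barcodes it was at 348 CPM in TAC and 659 CPM in sham, 1.89-fold lower in TAC. Fth1, which stores iron set free from heme, was 1.44-fold higher in TAC members and 1.09-fold in TAC comparison barcodes. Slc40a1 was 3.62-fold lower in TAC members and 8.84-fold lower in TAC comparison barcodes. The larger excess of Hmox1 in members of the TAC library thus came with a lower level in its comparison barcodes as well as a higher one in its members, and whether the 2 ratios differ could not be tested with 1 library per group.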

How the data were processed

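RNA of CD45+ cells sorted from hearts was counted by the authors with the 10x Genomics platform, and the deposited count matrices hold whole UMI counts per gene and barcode for 31053 features. Cell Ranger 3.0 and the mouse build mm10 are named per the submitters' processing notes, and the step that separated cells from empty droplets is not given in the sources used. Gene coordinates are from GENCODE vM21 and promoters from RefSeq, GRCm38.p6.

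Counts were summed per library and set of barcodes, scaled to CPM, and compared as ratios, with 0.5 UMI added for log2 values. Intervals are exact 95% binomial, Poisson or Clopper-Pearson intervals for counting error, and those of ratios of shares are normal approximations on the log scale. They leave out the spread between barcodes. UMIs remove PCR copies. The minimum of 20 expected UMIs uses the mean level of both sets, so a gene low in 1 set can pass. Genes of the rule were left out of counts. The 2 libraries sum to 97983083 (TAC) and 87532984 (sham) UMIs. Doublets were not removed and no caller was run; barcodes with at least 5 UMIs of another cell type's defining genes were counted instead. Fibroblast-marker, neutrophil-marker and T-marker barcodes set beside the shares had under 10 C1q UMIs per 10000. Where 2 IDs share a symbol, the ID with more UMIs was used. The ratios, calls and intervals were tested on simulated summed counts, which held no spread between barcodes. The summing over barcodes was not simulated. The work used matplotlib 3.10.9, pandas 2.3.3, scipy 1.17.1 and numpy 2.4.6 under Python 3.11.15.

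Named genes are the 15 highest and 15 lowest by the weaker library's ratio with at least 50 CPM, the 10 highest and 10 lowest in TAC over sham members (both without mitochondrial, ribosomal protein, haemoglobin, receptor segment, sex-linked, predicted and rule genes), up to 3 highest and 3 lowest of each of 21 gene lists, and the rule's genes; 1 of the 15 lowest is not reported here. Further genes of known role (among them Il7r, Ereg, Spp1, Lyve1, Atf4, Ddit3, Sqstm1, Gclm, Fth1, Cxcl2, Ccl2, Ccr2, Vegfa, Nlrp3, Il1b, Lgals3 and Mmp12) were named after their values were seen, and the split into Gdf15-led and Areg-led members was added then. The members and lists were chosen with earlier results of these data known. Alternatives changed the mitochondrial, gene, C1q and UMI limits, the comparison barcodes, the scaling and the expected minimum, 1 at a time.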

Additional observations from a re-analysis of the deposited data

Results flagged for a closer look

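In 3 of the genes examined, members stood on opposite sides of their comparison barcodes in the 2 libraries by over 1.5-fold; with 1 library per group these differences between the libraries were not tested. Tm4sf1, a gene of endothelial and other non-immune cells, had a log2 ratio of members over comparison barcodes of 2.88 in TAC and -1.60 in sham, and 96.5% of the TAC members' UMIs came from 1 barcode. Ddit4, a stress-induced inhibitor of the growth kinase mTOR, had a log2 ratio of 0.71 in TAC, at 16.1 against 9.89 CPM, and of -0.89 in sham, at 3.67 against 6.97 CPM. Cxcl9, an interferon-gamma-induced chemokine, had a log2 ratio of -0.62 in TAC, at 188 against 290.1 CPM, and of 0.60 in sham, at 22.7 against 14.99 CPM.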

How the results depend on the processing

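With 122 genes followed, 4431 of 4786 values under alternative settings kept their direction and their side of 1.5-fold, 139 kept only the direction and fell short of it, 186 newly passed it and 30 changed sign. List medians kept their direction and their side of 1.5-fold in 1104 of 1153 cases, and 2 changed sign. The ratio of the TAC to the sham share left the main interval of 0.908 to 1.20 with a mitochondrial limit of 5% (0.903, with 10 members of 62 eligible sham barcodes) and with Areg alone (1.27), but the intervals of these ratios, 0.505 to 1.61 and 0.959 to 1.69, hold the main value. With a mitochondrial limit of 25% the ratio was 1.19, inside the main interval, but its own interval, 1.05 to 1.34, lay above 1. Counts of genes in members against comparison barcodes moved with that 5% limit (sham 198 higher and 74 lower), with comparison barcodes weighted to the members' depth (sham 309 lower), with centring on the median gene (TAC 318 lower), with no exclusion limits on comparison barcodes (TAC 806 and sham 305 lower) and without each gene's top barcode (sham 291 lower). They also moved with an expected minimum of 5 UMIs (TAC 919 higher and 992 lower, sham 664 and 555) and of 100 UMIs (TAC 284 and 108, sham 114 and 17), since these change how many genes are tested. Genes in TAC against sham members numbered 166 higher and 197 lower at the 5% limit, 989 lower with Areg alone, 2906 lower at a minimum of 5 and 575 higher and 703 lower at 100.

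The values that changed sign follow as log2 ratios; their cause was not tested. With the 5% limit, which leaves 10 sham members, the sham ratios were 1.09 for Fabp4, 1.25 for Tm4sf1, -2.02 for Mthfd2, 0.60 for Ifit2, -1.28 for Mmp14 and -0.62 for Slc11a2, and the TAC over sham medians -1.26 for the monocyte-derived list and -0.71 for the matrix list. Cxcl9 in sham came to -0.0051 with a 25% limit and -0.31 with at least 5 UMIs, and Dcn in TAC to 0.028 with at least 2. With Areg alone, TAC ratios were -3.50 for Tm4sf1, -0.35 for Phlda3, -1.22 for Slc40a1 and -0.44 for Mmp12, sham ratios 0.048 for Dcn, 0.16 for Fabp4, 0.33 for Ifit2, 0.031 for Cmpk2, -0.88 for Gpnmb and -0.23 for Slc40a1, and the TAC over sham ratio of Tm4sf1 -3.37. Tm4sf1 in TAC was at -1.45 with at least 3 UMIs per 10000, at -1.54 with a C1q limit of 80 (TAC over sham -0.37), at -1.59 without its top barcode and at -0.89 without barcodes with RNA of other types (TAC over sham -0.29). That last setting also gave 0.30 in TAC and 0.22 in sham for Fabp4 and 0.37 in TAC for Col4a1, and depth weighting gave -0.24 for Fn1 in sham.

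Leaving out each gene's top barcode, or barcodes with RNA of other types, were alternatives chosen after seeing the data. No paired analysis was possible because each group is 1 library. That number also limits every statement here. Intervals cover counting error and not the spread between mice or between barcodes. A Gdf15 or Areg count under 3 in a shallow barcode does not show that the cell lacks the RNA.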
